A study of Mus musculus with 66 samples.

Results

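Neurons that had received a lentivirus with a nontargeting short hairpin RNA (shRNA) were compared with neurons that had received no virus. The comparison rests on 12 of the 66 libraries of the series. Of these, 6 carry the label nontargeting and 6 the label no virus, and each set holds 3 libraries from male and 3 from female embryos. The libraries were chosen by condition, and every gene with a symbol in the count table was considered, which gave 30084 symbols. This choice and that of the gene lists were made with earlier results of these data known. All 12 cultures came from wildtype mouse embryos (e16.5) and were grown in neurobasal medium with B27, GlutaMax and antibiotics on poly-D-lysine. For infection, the growth medium was exchanged for medium without supplements. Virus was washed away at day 6 in culture, and lysis followed at day 10. The other 54 libraries carried hairpins against Tbr1, Setd5, Chd8, Ash1l, Kmt2c, Kdm6b, Dnmt3a, Mbd5 or Med13l and serve here as further infected cultures.

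The labels do not say whether the no virus wells had the same change of medium. The virus particle, the hairpin and the handling of the wells therefore cannot be told apart in this comparison. The nontargeting libraries were found in the count table by a column name that begins with Luc, which no label carries. The match is by elimination: these were the columns left that are named neither for a mouse gene nor NV, and no source used here states it. The labels speak of a triplicate of wells and do not say that replicates came from separate litters. The p-values thus measure the spread between these samples, which may be technical.

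A lentivirus enters the cell with an RNA genome, copies it into DNA and inserts that DNA into a chromosome. Cells can detect such foreign nucleic acid with RNA sensors (RIG-I, encoded by Ddx58, and MDA5, encoded by Ifih1), with the DNA sensor cGAS, and with endosomal Toll-like receptors. The RNA sensors and cGAS act through Tbk1 and the transcription factor Irf3 to switch on type I interferon. Interferon binds Ifnar1 and Ifnar2, activates Jak1 and Tyk2, and induces antiviral genes such as Isg15 and the Ifit family. An shRNA is processed by Dicer1 and loaded into Argonaute proteins, the machinery that also serves microRNAs. A nontargeting hairpin is used because it passes through these steps without a matched mRNA.

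Total counts ranged from 25603612 to 56017455 in the 12 libraries, and 15215 genes had enough counts to be tested. The sex labels fitted the data in all 12, with Xist between 1003 and 1930 counts-per-million (CPM) in the 6 from females and no more than 0.306 CPM in the 6 from males. Library number 1 of the no virus females stood apart. Mitochondrially encoded genes made up 15.6% of its counts, against 3.68% to 7.45% in the other 11. The mitochondrial share, the total count and the number of genes at 1 CPM or more did not differ between the conditions beyond the spread of the pairs, with exact two-sided sign-flip permutation p of 0.469, 0.656 and 0.531, each 0.656 after adjustment over the 3 values. The number of genes at 1 CPM or more was higher with the hairpin in 1 of 6 pairs. That pair was the females number 1, with 12896 genes without virus and 12968 with the hairpin. The smallest p that 6 pairs allow is 0.0312. Libraries of the same sex and replicate number deviated together, so the test compared each nontargeting library with the no virus library of its own sex and number. These 6 pairs, or blocks, held 70.3% of the sum of squares of log2 CPM over all genes tested. The virus held 5.17% and the residual 24.5%. Blocks, virus and residual had 5, 1 and 5 degrees of freedom. Per degree of freedom, the mean over genes was 0.0975 for the virus, near the 0.0925 of the residual. The median over genes was 0.0134 for the virus, below the 0.0211 of the residual.

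Across both sexes, 3 genes were lower in the nontargeting libraries and none was higher (edgeR quasi-likelihood test, Benjamini-Hochberg adjusted p under 0.05). The 3 genes are 0.0197% of the genes tested, and the share called higher is 0%. They were Col3a1, which encodes the fibrillar collagen alpha chain of connective tissue, Igf2, an imprinted growth factor, and Fam214b. Before adjustment, 603 genes had p under 0.05, or 3.96% of those tested, 227 higher (1.49%) and 376 lower (2.47%). DESeq2 on the same libraries called 11 genes, all lower, or 0.0723%, and these included the 3. The calls were fragile. Without either female library number 1, edgeR called 9 genes, among them the 3, and without either female library number 3 it called Igf2 alone. Without any 1 of the 6 male libraries, or either female library number 2, it called none, with 437 to 695 genes at an unadjusted p under 0.05.

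Col3a1 (chr1:45311538-45349706, plus strand, GRCm38) was measured at 3.71 CPM in the lowest, 5.01 in the median and 9.13 in the highest no virus library. In the nontargeting libraries these values were 1.39, 2.92 and 3.27 CPM. Every nontargeting library lay below every no virus library. The gene was picked by its small p in these libraries, and the share of all genes that separate so was not counted. The log2 fold change was −1.11 with a standard error (SE) of 0.145 and a 95% interval from −1.42 to −0.80 (n = 6 pairs, edgeR adjusted p = 0.0323). The nontargeting mean was 46.8% of the no virus mean, and Col3a1 was lower in 6 of 6 pairs, as were 1.81% of all genes tested.

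Igf2 (chr7:142650766-142666816, minus strand) spread widely in the uninfected cultures, from 1.81 CPM through a median of 2.94 to 17.5 CPM. The nontargeting libraries ran from 0.682 through 1.08 to 2.20 CPM. The highest no virus value, 17.5 CPM, came from female number 1, the library with the high mitochondrial share, and its nontargeting partner was the highest of its own group. The groups overlapped, while Igf2 was lower in 6 of 6 pairs. The log2 fold change was −1.95 (SE 0.261, 95% interval −2.52 to −1.39, edgeR adjusted p = 0.0323), and −1.70 without the no virus female number 1. Igf2 shares its locus with the antisense transcript Igf2os and with Gm49394, and the sources used here do not state whether reads were counted by strand.

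Fam214b (chr4:43032414-43046220, minus strand) was the most abundant and least changed of the 3. Its levels ran from 37.6 through 41.9 to 47.2 CPM without virus and from 28.2 through 31.1 to 35.6 CPM with the nontargeting hairpin. The groups did not overlap, which again describes a gene picked by its small p in these libraries. The log2 fold change was −0.42 (SE 0.0585, 95% interval −0.55 to −0.29, edgeR adjusted p = 0.0339), and 6 of 6 pairs were lower. Noncoding transcripts Gm26643 and Gm26881 lie on the opposite strand of this gene.

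**Figure D1:**
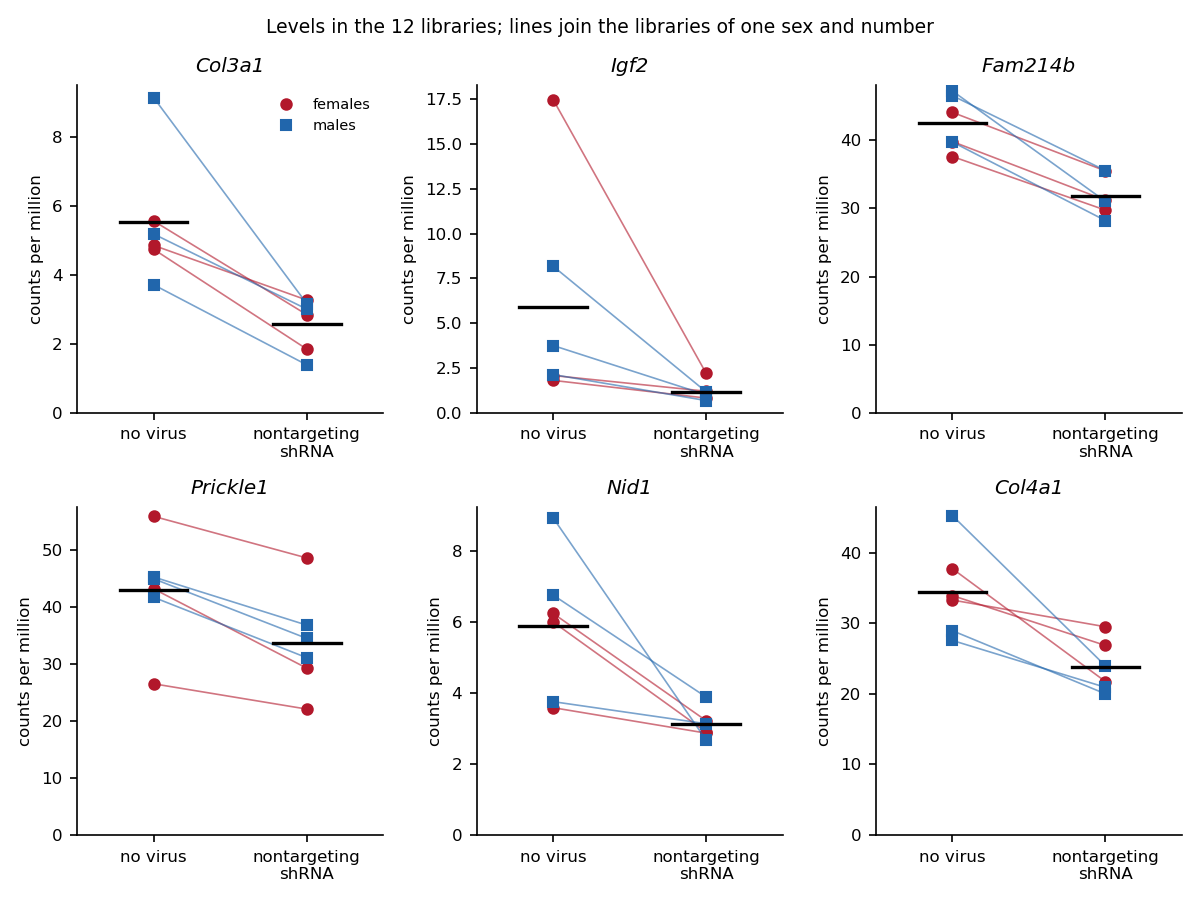
Level in CPM (vertical axis) of 6 genes in the 6 no virus and 6 nontargeting libraries. Circles are female and squares male libraries, lines join libraries of the same sex and number, and bars are group means. Every line falls for all 6 genes, which were taken from those with the smallest p on the lower side. The highest Igf2 point is the no virus female number 1 at 17.5.

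Below the 3 genes called, the ranking by p on the lower side held Prickle1, Col4a1, Nfe2l3, Nid1 and Zmat4, none of which passed the adjusted threshold by edgeR. Prickle1, a planar cell polarity protein, was at 26.6, 44.1 and 56.0 CPM (lowest, median and highest) without virus and at 22.1, 32.8 and 48.7 CPM with the hairpin. The groups overlapped over most of their range, but each nontargeting library was below its partner. Its log2 difference was −0.36 (edgeR adjusted p = 0.146). Col4a1, a chain of the basement membrane collagen, was at 27.6, 33.6 and 45.3 CPM against 20.01, 22.9 and 29.5 CPM, with 6 of 6 pairs lower and a log2 difference of −0.53 (SE 0.0897, adjusted p = 0.146). Nid1, which encodes the basement membrane linker nidogen, was at 3.59, 6.13 and 8.95 CPM against 2.68, 3.02 and 3.89 CPM, a log2 difference of −0.86 (SE 0.169, adjusted p = 0.381). Nfe2l3 and Zmat4 differed by −0.48 and −0.37 log2 (adjusted p = 0.359 and 0.381).

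Col4a1 and Col4a2 encode partner chains of the same collagen and are transcribed away from each other from 1 shared promoter region. The RefSeq starts (GRCm38.p6) lie at chromosome 8 position 11312826 on the minus strand for Col4a1 and 11312805 on the plus strand for Col4a2, 21 bases apart. The stretch common to both promoter windows, chr8:11312777-11312854 on the plus strand, is shown to make the overlap visible, with the 22 bases from one start to the other in capitals.
Col4a1 and Col4a2: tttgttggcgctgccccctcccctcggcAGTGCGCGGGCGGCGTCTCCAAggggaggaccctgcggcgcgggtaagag
Col4a2 ranged from 32.5 to 53.8 CPM without virus and from 33.9 to 45.0 CPM with the hairpin. Its log2 difference was −0.03 (SE 0.0824, 95% interval −0.21 to 0.15, edgeR adjusted p = 0.970), against −0.53 (−0.72 to −0.34) for Col4a1. The difference between the pair of genes was not tested. Because the genes overlap on opposite strands at their starts, a part of their reads may not be separable.

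The genes that DESeq2 called beyond the 3 were Col4a1, Prickle1, Nid1, Zmat4, Nfe2l3, Tagln, Pole3 and Vtn. Tagln, a contractile protein of smooth muscle and mural cells, differed by −0.61 log2 in the edgeR fit (adjusted p = 0.396), the DNA polymerase subunit Pole3 by −0.43 (adjusted p = 0.720) and the matrix protein vitronectin, Vtn, by −0.87 (adjusted p = 0.868). Tagln and Pole3 were lower in 6 of 6 pairs and Vtn in 5 of 6.

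**Figure D2:**
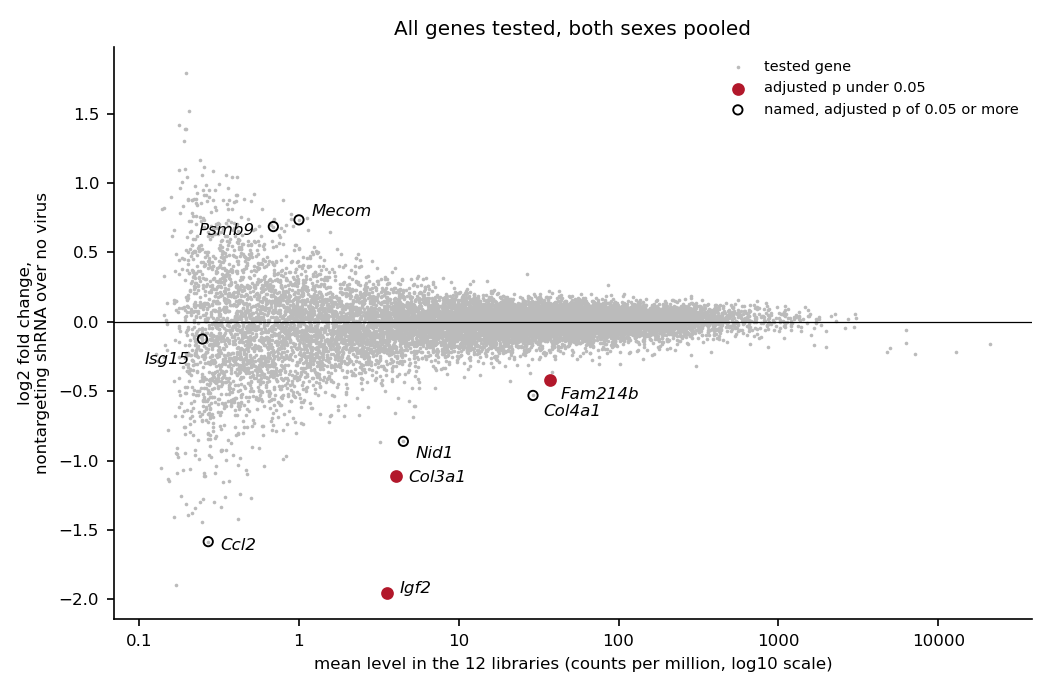
Log2 fold change of nontargeting over no virus (vertical axis) against mean level in CPM (horizontal log axis) for the 15215 genes tested. Red points passed the threshold and open circles are named genes that did not; Col3a1, Igf2 and Fam214b lie below 0, and no red point lies above.

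On the higher side, the 8 genes with the smallest p all had an edgeR adjusted p of 0.931. Mecom, a zinc finger transcription regulator, headed them with 0.455, 0.644 and 1.30 CPM without virus and 0.894, 1.07 and 2.34 CPM with the hairpin, a log2 difference of 0.73 (SE 0.221). The groups overlapped, with 6 of 6 pairs higher, as for 2.08% of all genes tested, and the highest nontargeting value came from male number 1. Next were Kbtbd11 at 0.22, Ube2cbp at 0.44, the secreted Wnt inhibitor Wif1 at 0.35, Dcbld2 at 0.17, the sialyltransferase St8sia5 at 0.22, the uracil DNA glycosylase Ung at 0.49 and the histone mRNA binding protein Slbp at 0.19.

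No antiviral list showed a call. Of the 26 genes of nucleic acid sensing, 18 could be tested, and edgeR called none, with none at an unadjusted p under 0.05. Of the 18, 8 had a positive and 10 a negative log2 difference, with a median of −0.04 against 0.00 for all genes tested. Tbk1 is the kinase that relays the RNA sensors and cGAS. It was at 25.3, 27.8 and 31.8 CPM without virus and at 23.9, 25.6 and 28.9 CPM with the hairpin. The log2 difference was −0.12 (95% interval −0.25 to 0.01). Irf3, the factor Tbk1 activates, was at 7.53, 12.7 and 14.6 against 7.60, 10.8 and 12.5 CPM (log2 −0.13, −0.30 to 0.05). The ranges overlapped for both. Ddx58 and Ifih1 were rare, with 573 and 156 counts over the 12 libraries, and their log2 differences were −0.44 and 0.47. DESeq2 called 1 member across all 24 lists that were examined, Col3a1, so it called none of the sensing genes either. Its default settings can leave rare genes without an adjusted p, and in every list such genes counted as not called.

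The interferon list held 63 genes, from receptors to induced effectors. Only 40 passed the filter on low counts, and 2, Oas1a and Ccl5, had no count in any of the 12 libraries. EdgeR called none of the 40. At an unadjusted p under 0.05 stood the immunoproteasome subunit Psmb9 (log2 0.69) and the antiviral GTPase Mx2 (0.95) on the higher side, and the class I histocompatibility gene H2-K1 (−0.19) on the lower side, each with an adjusted p of 0.931. Of the 40, 16 had a positive and 24 a negative log2 difference, with a median of −0.04. Summed over the list, the level was 482.5, 507.2 and 557.6 CPM without virus and 478.1, 507.9 and 552.9 CPM with the hairpin, which are nearly the same ranges.

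Receptor pathway genes and several interferon-induced genes were well covered. Jak1, the receptor kinase, was at 166.1, 173.8 and 196.0 CPM without virus and at 166.9, 182.2 and 208.2 CPM with the hairpin, a log2 difference of 0.04 (95% interval −0.05 to 0.14). The class I histocompatibility gene H2-D1, itself interferon-induced, was at 61.3, 70.1 and 81.8 against 47.0, 72.1 and 84.0 CPM (−0.04, −0.18 to 0.10). Ifnar1 differed by −0.00 (−0.12 to 0.11) and Stat2 by −0.02 (−0.15 to 0.12). Among other induced genes, chosen after their values were seen, Ifit2 (67 to 207 counts per library) differed by 0.11 (−0.23 to 0.46), Cmpk2 (356 to 736 counts) by −0.05 (−0.22 to 0.12), Ifi27 by 0.24 (−0.00 to 0.48), the peptide transporter Tap1 by −0.04 (−0.27 to 0.18) and B2m, the class I light chain, by −0.18 (−0.45 to 0.08). Other effectors were rare. Isg15, a ubiquitin-like protein that interferon induces strongly, had 105 counts in all, at 0.140, 0.237 and 0.408 CPM without virus and 0.111, 0.251 and 0.317 CPM with the hairpin. The groups overlapped, and the log2 difference was −0.12 with an interval from −0.99 to 0.75. Ifit1 had 12 counts over the 12 libraries, Ifit3 52, Mx1 69, Cxcl10 41 and Ifnb1, which encodes interferon beta, 4. These 5 were too rare to test. For 6 of the 40 tested members the interval reached above a 2-fold rise, and for those a rise of this size was not excluded.

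**Figure D3:**
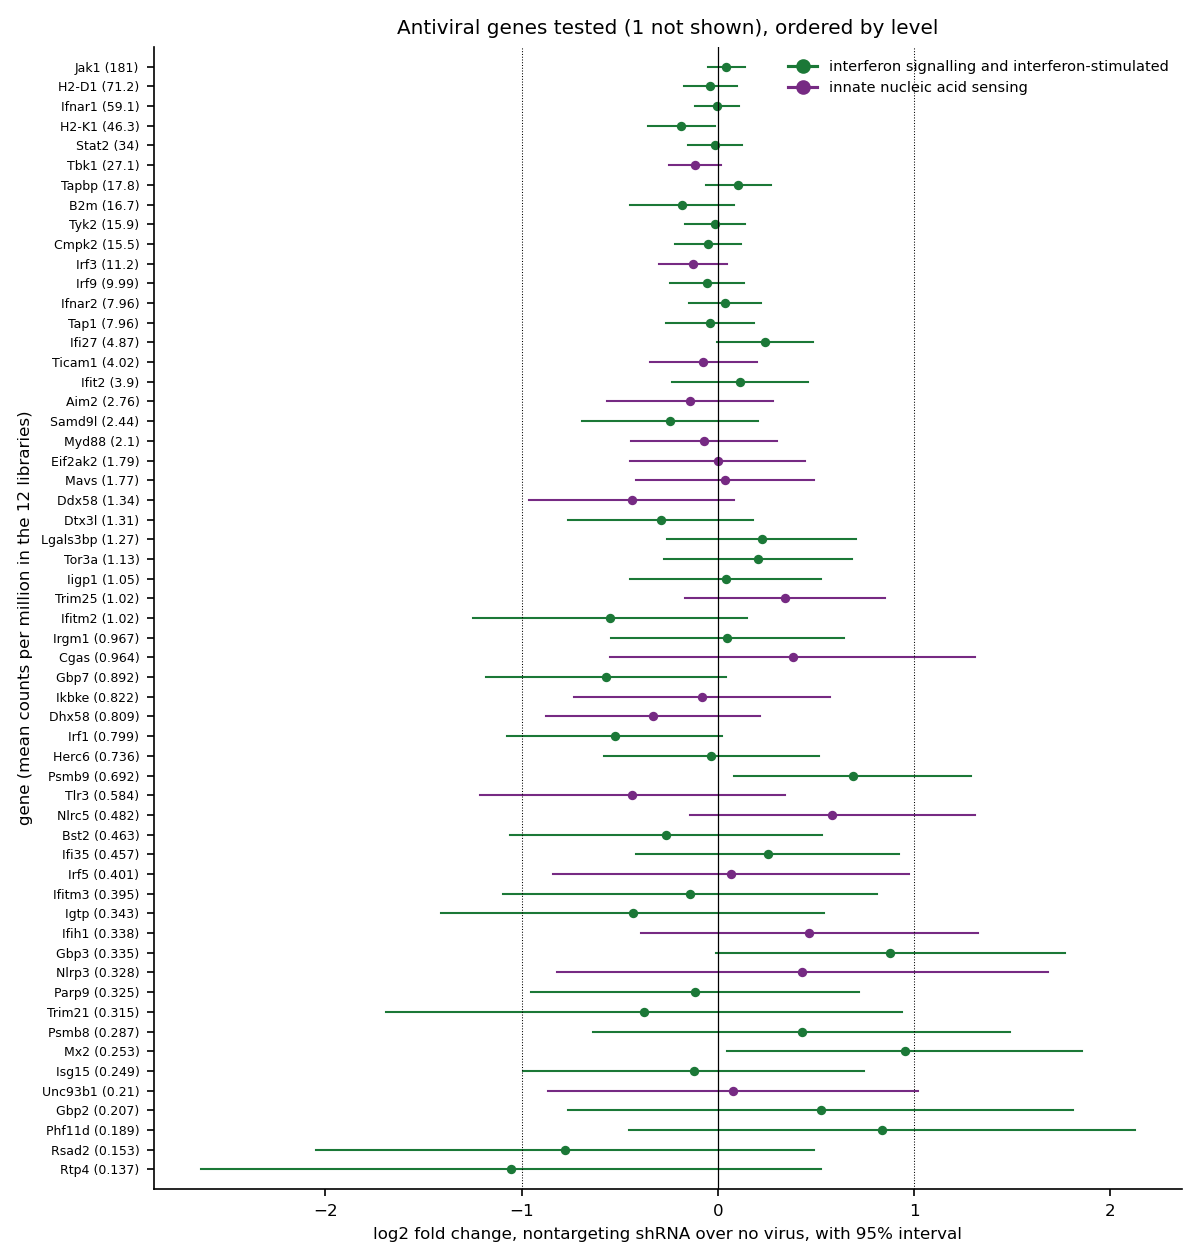
Log2 fold change with 95% interval (horizontal axis) for the tested sensing (purple) and interferon (green) genes, apart from 1 that is not shown, ordered by mean level, which stands in CPM beside each name. Dotted lines mark a 2-fold change either way. Abundant genes such as Jak1 have intervals close to 0, and intervals widen towards rare genes such as Isg15.

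The promoters of Isg15 and Ifit1 are shown because they carry the interferon-stimulated response element (ISRE), the site through which interferon acts on its target genes. Windows run from 250 bases before to 50 bases after the RefSeq start (GRCm38.p6). The letters GAAANNGAAA were searched on both strands, with overlapping matches allowed, and matches are in capitals. On the strand shown, which is that of the gene, the reverse complement reads TTTCNNTTTC. The Isg15 window is chr4:156200769-156201068 on the minus strand, and the Ifit1 window is chr19:34640639-34640938 on the plus strand.
Isg15: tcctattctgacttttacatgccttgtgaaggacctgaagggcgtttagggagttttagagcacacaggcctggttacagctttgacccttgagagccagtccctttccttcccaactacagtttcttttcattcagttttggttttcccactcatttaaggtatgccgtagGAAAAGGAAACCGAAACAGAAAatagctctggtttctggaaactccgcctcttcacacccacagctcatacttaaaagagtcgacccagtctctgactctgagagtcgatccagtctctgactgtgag
Ifit1: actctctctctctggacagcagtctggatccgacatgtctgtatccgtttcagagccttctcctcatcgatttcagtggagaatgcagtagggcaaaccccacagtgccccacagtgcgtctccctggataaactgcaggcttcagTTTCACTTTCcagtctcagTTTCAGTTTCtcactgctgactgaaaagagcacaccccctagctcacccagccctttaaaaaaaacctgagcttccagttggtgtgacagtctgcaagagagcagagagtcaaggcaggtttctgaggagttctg
Isg15 had 3 matches, which overlap each other, and Ifit1 had 2, both on the opposite strand. Of 32851 RefSeq windows of this length, 1131 held a match (3.44%), and of 27025 symbols with a window, 1079 (3.99%) had a match in at least 1. Of the 63 interferon genes, 49 had a window, and 21 of these held a match (42.9%). Among the genes tested, 408 had a window with a match, of which 196 had a positive and 212 a negative log2 difference. Their median log2 difference was −0.00, and that of genes without a match was 0.00. Igf2 is the 1 gene called that has a match, in 1 of its windows. Of the 13 tested interferon genes with a match, 3 had a positive and 10 a negative log2 difference, with a median of −0.18. EdgeR called none of the 13, and the split between the directions was not tested.

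The NF-kB and inflammatory list gave a like picture, with 19 of 30 genes tested, none called by edgeR or DESeq2 and a median of 0.00. Rela, the main activating subunit, was at 21.8, 23.2 and 28.2 CPM without virus and 20.9, 24.3 and 27.6 CPM with the hairpin (log2 0.03). Its inhibitor Nfkbia, which NF-kB itself induces, was at 11.8, 13.8 and 16.2 against 10.4, 11.9 and 14.4 CPM (−0.17, unadjusted p = 0.0424, adjusted p = 0.931). The chemokine gene Ccl2 had 106 counts in all, at 0.0569, 0.303 and 0.883 against 0, 0.135 and 0.195 CPM, with 5 of 6 pairs lower (log2 −1.58, unadjusted p = 0.0176, adjusted p = 0.931). No other member reached an unadjusted p under 0.05. Tnf had 4 counts over the 12 libraries and was not tested.

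Stress and death programmes were likewise without a call by edgeR or DESeq2. All 32 genes of the integrated stress and unfolded protein responses were tested, with 24 positive and 8 negative log2 differences and a median of 0.03. The chaperone Hspa5 was at 491.1, 598.4 and 685.9 CPM without virus and 502.7, 585.3 and 724.1 CPM with the hairpin (log2 0.01, 95% interval −0.07 to 0.09). Sdf2l1 (0.27) and Sesn2 (0.20) had an unadjusted p under 0.05, both higher. Among 17 heat shock genes tested, the collagen chaperone Serpinh1 stood at −0.34 (SE 0.108, unadjusted p = 0.00784, adjusted p = 0.931), with 10.3, 11.2 and 18.6 against 7.39, 9.89 and 12.9 CPM. Hspa8 and Hsp90ab1, the most abundant members, differed by −0.03 and 0.03.

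In the oxidative stress list of 21 genes, the thioredoxin inhibitor Txnip was the 1 member with an unadjusted p under 0.05 (log2 −0.38). Its highest level without virus was 33.6 CPM, in female number 1, the library with the high mitochondrial share. The highest level with the hairpin was 16.7 CPM. The 23 p53 targets had a median of 0.02, with Sesn1 (0.17) and Btg2 (0.16) higher and Perp (−0.30) lower at an unadjusted p under 0.05. Of 18 cell death genes, 15 were tested and none had an unadjusted p under 0.05.

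**Figure D4:**
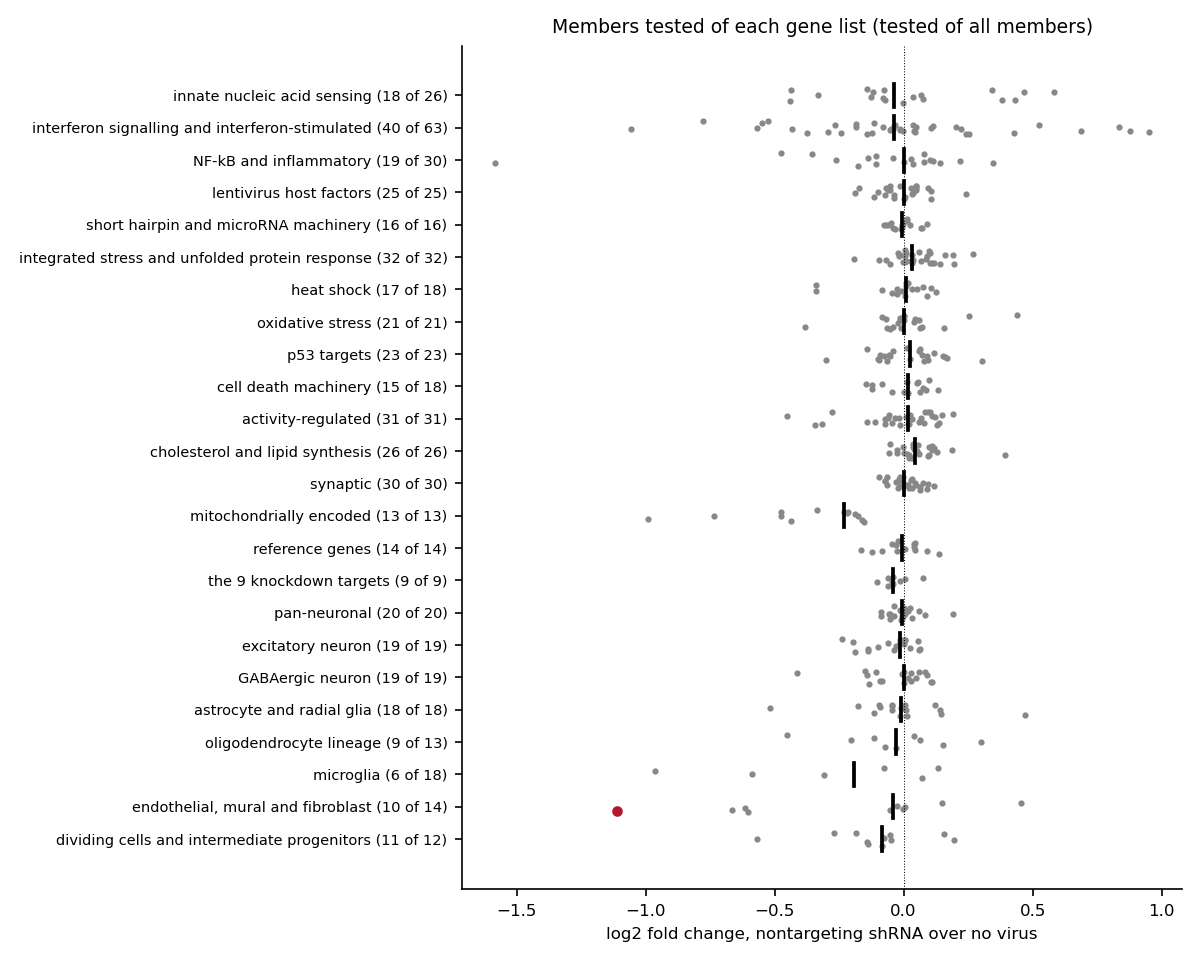
Log2 fold change (horizontal axis) of every tested member of the 24 gene lists, 1 line per list, with the number tested of all members beside its name. Bars are medians and red marks a called gene; Col3a1 is the 1 red point, and the mitochondrially encoded list has all 13 members below 0.

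Lists tied to neuronal function had no call by edgeR or DESeq2 either. Activity-regulated genes ranged widely between cultures of the same condition, with a summed level from 796 to 3532 CPM without virus and from 1007 to 3266 CPM with the hairpin. Egr2 (−0.34) and Egr3 (−0.28), immediate early transcription factors, were lower in 6 of 6 pairs at an unadjusted p of 0.00974 and 0.0161 (adjusted p = 0.931 each), while Fosl2 and Nr4a3, the most abundant members, differed by 0.12 and 0.08. The 30 synaptic genes split into 15 with a positive and 15 with a negative log2 difference, with none at an unadjusted p under 0.05. Vamp2, a vesicle fusion protein, differed by −0.01 (95% interval −0.12 to 0.10). Of the 26 cholesterol and lipid synthesis genes 21 had a positive log2 difference, with a median of 0.05, and none had an unadjusted p under 0.05. Hmgcs1, an early enzyme of the pathway, differed by 0.02 (−0.07 to 0.11).

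Neither the host factors that lentiviruses use nor the hairpin machinery had a member at an unadjusted p under 0.05, with 25 of 25 and 16 of 16 genes tested. Ppia, which encodes the capsid-binding cyclophilin A, was at 555.7, 741.1 and 1388 CPM without virus and 495.4, 717.4 and 1244 CPM with the hairpin (log2 −0.06, −0.15 to 0.03). Psip1, the tether of the viral integrase to chromatin, differed by −0.07 (−0.24 to 0.10). Ago2, the Argonaute that cleaves matched mRNA, was at 144.5, 235.3 and 301.2 against 162.2, 245.4 and 314.6 CPM (log2 0.07, −0.02 to 0.16). The 9 genes targeted elsewhere in the series also had none at an unadjusted p under 0.05, with log2 differences from −0.10 for Mbd5 to 0.07 for Dnmt3a.

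The cultures expressed neuronal genes at high level in both conditions. Per kilobase of gene length (GENCODE vM21), the highest levels belonged to mitochondrially encoded genes, led by COX1 at 13700 CPM per kilobase, followed among nuclear genes by the tubulin Tuba1a at 3486, Tmsb4x at 1282, Eef1a1 at 1209 and Tubb2b at 1133 CPM per kilobase. Gm35857, a processed pseudogene, was also among the highest 15, and its reads may belong to its parent gene. Somatostatin (Sst), an interneuron peptide, stood at 757.9, neuronal tubulin Tubb3 at 742.7 and the growth cone protein Gap43 at 709.6 CPM per kilobase. Neurod6 of excitatory neurons stood at 131.8 and Gad1 of GABAergic neurons at 95.7 CPM per kilobase. Fabp7 of radial glia was at 158.5, and ranged from 66.9 to 461.9 between libraries. The pan-neuronal sums of 20 genes were 14530 CPM in the median no virus library and 14490 CPM in the median nontargeting library. In bulk RNA, fewer cells of a type and less RNA per cell cannot be told apart.

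Markers of microglia and of endothelial, mural and fibroblast cells were present at low levels. Of 18 microglial markers 6 could be tested, and the defining markers P2ry12 and Tmem119 had 8 and 26 counts over the 12 libraries. Their summed level ran from 18.0 to 22.7 CPM without virus and from 16.2 to 21.3 CPM with the hairpin. Fcgr3 was the 1 member at an unadjusted p under 0.05 (log2 −0.59, adjusted p = 0.931). Among the 14 endothelial, mural and fibroblast markers, 10 were tested and Col3a1 was the 1 called. Pdgfrb (−0.67) and Col1a2 (−0.61) also had an unadjusted p under 0.05, on the lower side (adjusted p = 0.931 each). Of the 10 tested, 3 had a positive and 7 a negative log2 difference, from −1.11 to 0.46. For 2 of the 10 the interval reached above a 2-fold rise. The median of this list was −0.04, and −0.38 or −0.29 when a female library number 2 or 3 was left out. Its most abundant members were Dcn, at −0.05 (95% interval −0.22 to 0.12), and the pericyte marker Rgs5, at 0.01 (−0.18 to 0.19). The summed level of all 14 was 46.1, 64.8 and 90.7 CPM without virus and 40.9, 58.0 and 79.5 CPM with the hairpin, lower in 5 of 6 pairs. The part of these cells in the lower Col3a1 level was not tested.

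Pan-neuronal, excitatory, GABAergic, astrocyte, oligodendrocyte and dividing-cell markers gave no call by edgeR or DESeq2. Nefh, a heavy neurofilament, at 0.19 and the deep-layer factor Fezf2 at −0.14 were the only members of these 6 lists at an unadjusted p under 0.05. Reln, expressed by Cajal-Retzius cells and interneurons, was at 723.3, 871.3 and 1236 CPM without virus and 724.8, 1020 and 1364 CPM with the hairpin, a log2 difference of 0.11 (95% interval −0.00 to 0.21).

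All 13 mitochondrially encoded genes had a negative log2 difference, with a median of −0.23, and none had an unadjusted p under 0.05 or was called by DESeq2. The 13 were unlike in level: ND3, ND4L, COX2, COX3, ATP6 and ATP8 stood at 3.59 to 22.8 CPM per kilobase, against 3440 to 13700 for the other 7. COX1 was at 13070, 19570 and 51250 CPM without virus and 13880, 18030 and 27480 CPM with the hairpin, with 3 of 6 pairs lower. The highest value was that of the no virus female number 1. The mean pair difference in the mitochondrial share of counts was −1.38 percentage points over 6 pairs and −0.02 without that pair.

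Within each sex, edgeR called no gene. Males had 237 genes and females 649 at an unadjusted p under 0.05, with smallest adjusted p of 0.333 and 0.819. With male libraries fitted alone, edgeR called 9 genes, 8 lower and 1 higher, and without the filter on low counts 4, all lower, in males. DESeq2 called 4 genes in males (0.0263%) and 1, Igf2, in females (0.00657%). Log2 differences in males and females were −1.25 and −0.97 for Col3a1, −2.16 and −1.75 for Igf2, and −0.51 and −0.33 for Fam214b. The test of the difference between the sexes called no gene by edgeR or DESeq2, with 252 genes at an unadjusted p under 0.05.

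The 54 libraries with gene-targeting hairpins give the level of the same genes under infection with 9 other hairpins. They share the no virus libraries with the comparison above and also hold the effects of each knockdown, so their values are only set side by side. For the mean of the 9 hairpins against no virus, edgeR called 732 of 16145 genes (4.53%), 307 higher (1.9%) and 425 lower (2.63%). That count depended on the no virus libraries, with 136 genes without female number 1 and 350, 348 and 392 without male number 1, 2 and 3. Without the block it was 62.

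Col3a1 was at 0.509, 2.01 and 5.09 CPM (lowest, median, highest) in the 54 libraries, against a lowest no virus value of 3.71. In 51 of the 54 it was below that value, with a log2 difference from no virus of −1.41 (adjusted p = 2.26e-06). Igf2 was at 0.0775, 0.496 and 3.00 CPM and below the lowest no virus library in 50 of the 54 (log2 −2.95, adjusted p = 6.87e-10). The nontargeting medians of these genes, 2.92 and 1.08 CPM, lay between the no virus and the gene-targeting medians. Nid1 (−1.34, adjusted p = 6.87e-10) and Col4a1 (−0.71, adjusted p = 0.000139), which missed the threshold with the nontargeting hairpin, were below the lowest no virus library in 52 and 48 of the 54. Col3a1, Igf2, Nid1 and Col4a1 were picked as low against these same no virus libraries. How many of all genes lie as often below the lowest no virus library was not counted. Vtn (−1.23, adjusted p = 3.54e-05) and Tagln (−0.87, adjusted p = 0.000158) were also lower, and Ccl2 stood at −2.20 (adjusted p = 0.00134). In the same libraries, 6 of 12 tested endothelial, mural and fibroblast markers were called lower and none higher, with a median of −0.48, and these included Dcn and Rgs5 at −0.42 each. Of 12 dividing-cell markers 4 were called lower (Top2a at −1.06). Neuronal lists held lower calls as well, with 5 of 19 GABAergic, 4 of 30 synaptic, 3 of 20 pan-neuronal and 2 of 19 excitatory genes. No member of these neuronal lists was called higher, and of all genes tested 2.63% were called lower. The part of endothelial, mural, fibroblast and dividing cells in the matrix gene levels was not tested. On the higher side, Kbtbd11 (0.34, adjusted p = 0.0456), Slbp (0.25, adjusted p = 0.0249) and the sensing adaptor Myd88 (0.47, adjusted p = 0.0275) were called. Myd88 was the 1 sensing gene of 22 tested that passed, and none of 48 interferon genes did.

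Fam214b followed another course. Its level in the 54 libraries was 13.2, 41.5 and 55.2 CPM, and its log2 difference from no virus was −0.11 (edgeR adjusted p = 0.454). The median was 24.7 CPM with Chd8 and 30.0 CPM with Dnmt3a hairpins, near or below the nontargeting median of 31.1, and 47.8 CPM with Kmt2c and 49.8 CPM with Setd5 hairpins, above the no virus median of 41.9. Prickle1 differed from no virus by −0.01 in these libraries (adjusted p = 0.969), Zmat4 by 0.01 and Col4a2 by 0.03.

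**Figure D5:**
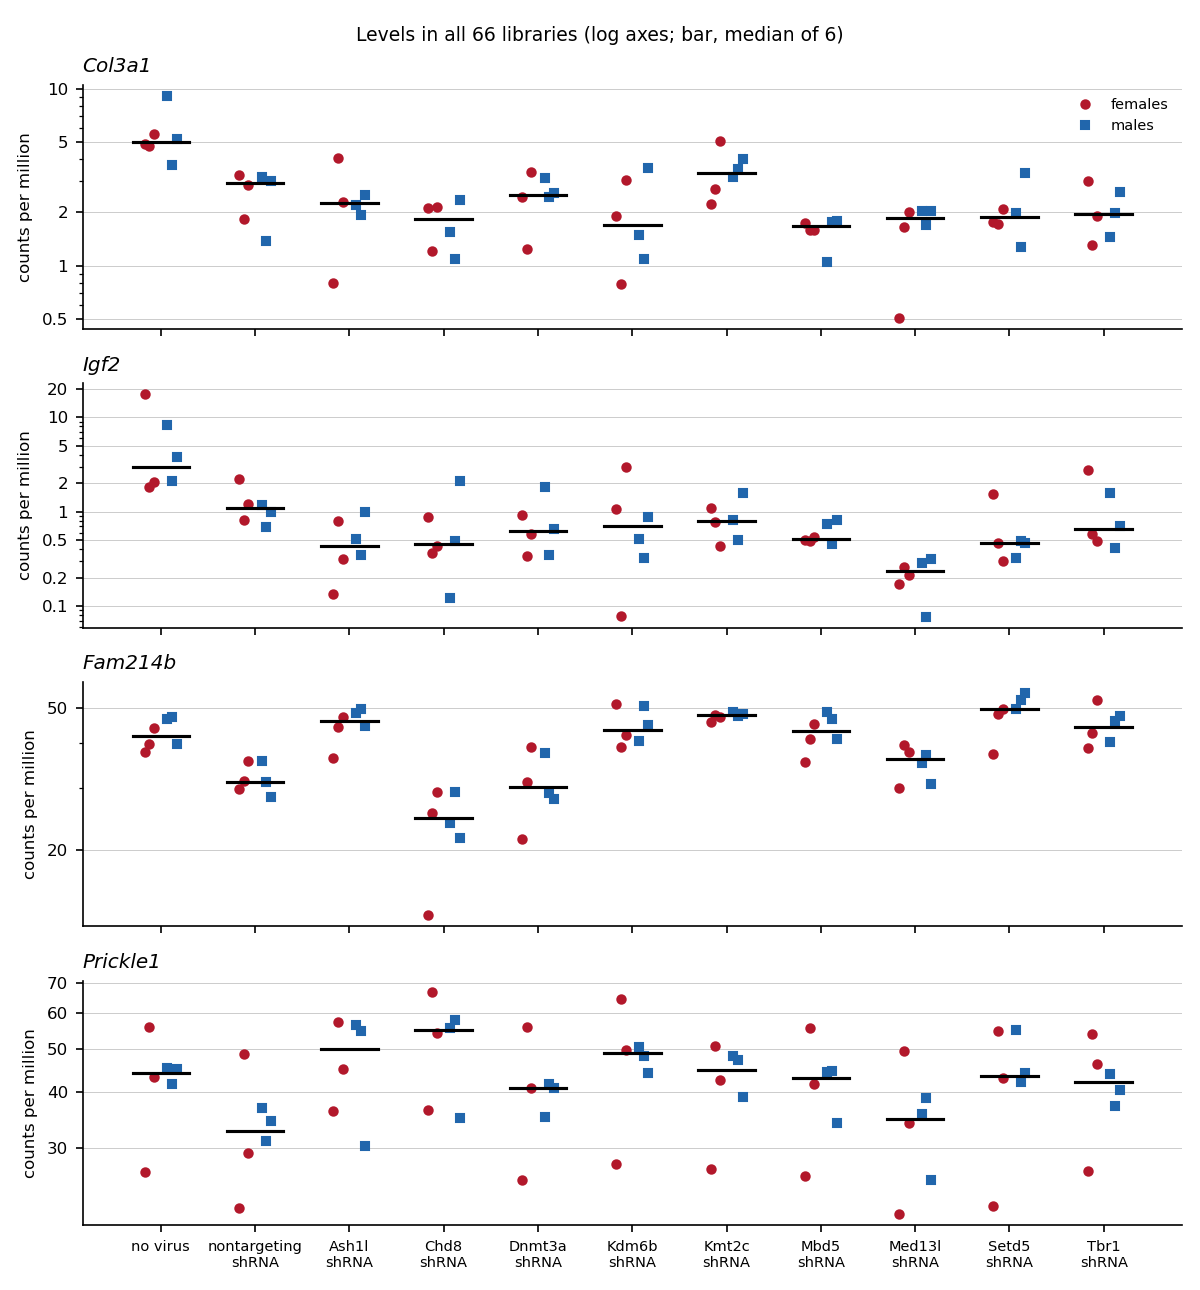
Level in CPM (vertical log axes) of Col3a1, Igf2, Fam214b and Prickle1 in all 66 libraries, by condition on the horizontal axis. Circles are female and squares male libraries, and bars are medians of 6. Col3a1 and Igf2 have their highest median without virus, at 5.01 and 2.94, whereas Fam214b has its lowest with Chd8 hairpins.

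The 6 genes per direction with the smallest p for the 9 hairpins together were chosen by that comparison, so their values in both comparisons are given as a description. C1qtnf1, a secreted C1q-domain protein, was at 0.91 log2 for the 9 and 0.40 for the nontargeting hairpin. The stress granule protein G3bp1 stood at 0.27 and 0.08, the lysosomal cholesterol carrier Npc2 at 0.34 and 0.11, Cdc42se1 at 0.38 and 0.11, Tomm34 at 0.36 and 0.08, and the Golgi adaptor Gga2 at 0.37 and 0.19. On the lower side were Igf2, Nid1, Col3a1 and Vtn, given above, with Necab2 at −0.37 and 0.01 and Zbtb4 at −0.43 and −0.01. Apart from Igf2 and Col3a1, none of these 12 was called in the nontargeting comparison by edgeR (adjusted p from 0.381 to 0.980). The difference between the comparisons was not tested.

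The precision of the comparison sets what these values can show. For 13815 genes, 90.8% of those tested, the 95% interval of the log2 fold change lay within a 2-fold change either way, and for 12218 genes (80.3%) within a 1.5-fold change. The median interval reached 0.17 log2 to each side. Without the pairing by replicate number it reached 0.31, with 88.3% of genes within 2-fold and 71.4% within 1.5-fold. Of the 40 interferon genes tested, 25 had an interval within 2-fold and 17 within 1.5-fold.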

How the data were processed

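Polyadenylated RNA was sequenced with a stranded kit, and the authors deposited 1 table of read counts per gene, not normalized. STAR, featureCounts and mm10 are named in the submitters' processing notes; the counting options are not given in the sources used here. Rows without a symbol (18483 of 48716, 0.696% to 1.41% of counts) were left out, and repeated symbols were summed. Another 6 library columns were not used. Low counts were mostly even (26.7% of values from 1 to 20 were odd, against 49.1% of values of 1000 or more), so halved counts were tried as an alternative.

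Counts were tested in R 4.3.3 with edgeR 4.0.16 (filterByExpr, TMM, robust quasi-likelihood F test, limma 3.58.1 beneath it), with Benjamini-Hochberg adjustment over all genes tested and a threshold of 0.05. The 12 libraries entered the fit with 6 blocks of sex and replicate number. The labels share replicate numbers between conditions, and deviations of same-numbered libraries correlated at 0.176 to 0.678, against −0.534 to −0.00923 for other numbers. Deviations were taken from the mean of each sex and condition. Values above 0 for same numbers therefore push those for other numbers below 0, and the contrast is partly fixed by this. CPM used TMM factors over all 66 libraries. The same test on all 66 libraries gave the mean of the 9 gene-targeting hairpins. Alternatives were DESeq2 1.42.0, other factors, filters and blocks, halved counts and leaving out each library. Library pairs of 1 group differed by more than counting noise.

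Members and lists were chosen with earlier results of these data known. Genes named were those called, the 8 with the smallest p per direction, per list the 2 most abundant members and the smallest p, the 6 per direction for the 9 hairpins, 5 sex-linked genes and the 15 highest by level; other names were chosen after their values were seen. Intervals cover the spread between libraries, and precision falls with the count. The values of 2 list members are not reported here.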

Additional observations from a re-analysis of the deposited data

Results flagged for a closer look

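A gap test (Dixon, 95%, critical value 0.625 for 6 libraries) was applied to 58 sets of 6 values, for 26 genes and the library measures, and 7 sets held a value set apart from the other 5. Chance alone sets apart about 1 set in 20. The mitochondrial share was 15.6% in the no virus female number 1, with a gap of 0.848 of the range. Pole3 was at 34.3 CPM in the same library (gap 0.783). Igf2 was at 2.20 CPM in the nontargeting female number 1 (gap 0.657). The no virus male number 1 was high for Col3a1, at 9.13 CPM (gap 0.659), and for Col1a2, at 6.59 CPM (gap 0.694). Mecom was at 2.34 CPM in the nontargeting male number 1 (gap 0.856), and Slbp at 30.0 CPM in the no virus female number 3 (gap 0.723).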

How the results depend on the processing

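The number of genes called between nontargeting and no virus, 3 in the pooled comparison, was 11 with DESeq2, 7 without the filter on low counts (Igf2 not among them), and 3 with median-ratio factors, with at least 10 counts in every library and with halved counts. It was 0 without the replicate block (115 genes at an unadjusted p under 0.05), 0 with a block by number shared by both sexes (118 at p under 0.05) and 0 with all 66 libraries in the fit and the block (323 at p under 0.05). Leaving out 1 library gave 0 to 9. The log2 fold changes kept their sign in all alternatives run. When 1 library was left out, they lay between −1.21 and −1.02 for Col3a1, −2.16 and −1.70 for Igf2 and −0.44 and −0.38 for Fam214b. These genes were called in 2, 4 and 2 of 12 such fits. Leaving out 1 library also left its partner without a comparison in its block, so the 12 fits drop each pair 2 times. In males, none was called by edgeR, 4 by DESeq2, 4 without the filter, 9 with male libraries alone, and 0 to 4 when 1 library was left out. In females the count was 1 with DESeq2. The test of the difference between sexes gave 0 to 1 (COX2, at 6.62 CPM per kilobase, without the nontargeting female number 1). For the mean of the 9 gene-targeting hairpins the count of 732 became 62 without the replicate block and 136 to 730 when 1 no virus library was left out. The cause of these changes was not tested. Among list medians, that of the p53 targets was 0.06 without a female library number 2 and that of microglial markers −0.55 without the no virus female number 1.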
